A study of Mus musculus with 12 samples.

Results

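The mouse Cyp2a and Cyp2b genes encode cytochrome P450 enzymes of the liver endoplasmic reticulum. The 7 members described here are Cyp2a4, Cyp2a5, Cyp2a12, Cyp2a22, Cyp2b9, Cyp2b10 and Cyp2b13, out of 27179 gene IDs in the count tables. They were taken by family name after Cyp2a4 and Cyp2a5 had been called higher in the heavy than in the light pool of chow-fed livers, so that contrast is given for them as a description and supports nothing. The rule has no threshold on a measured value. All 7 were found by their Entrez IDs, 6 of them passed the filter on low counts, and Cyp2b13 did not.

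Livers of male C57BL/6 mice were spread on sucrose gradients, and the RNA of the fractions was sequenced as a heavy pool, which the design text calls highly translated, and a light pool. Wild-type animals with free access to chow gave 3 livers (chow 1, 2 and 3), and wild-type animals given a ketogenic diet for 24 h, a diet rich in fat and poor in carbohydrate, gave 2 livers (keto 1 and 2). The time on the diet is from the protocol, while the time label of these samples reads 0 h, and the protocol's time is used here. A single chow-fed animal carried eIF4E S209A on both alleles, a change of the serine that MNK kinases phosphorylate in the cap-binding protein eIF4E. Each liver gave 1 heavy and 1 light library from 10 ng of RNA, 12 libraries in all. The labels give no age, and they do not say which gradient fractions made up which pool. The titles call chow 3 and the S209A animal fed and the other 4 animals chow or keto.

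CYP2A enzymes oxidise coumarin, nicotine and steroids, and CYP2B enzymes oxidise steroids and many drugs. Cyp2a5 is the coumarin hydroxylase of mouse liver and is known to follow the circadian clock, Cyp2a4 is a testosterone hydroxylase that is usually higher in female liver, and Cyp2b9 and Cyp2b13 are textbook female-predominant genes of mouse liver. Cyp2b10 is the classic target of the constitutive androstane receptor CAR, the nuclear receptor that drugs activate in hepatocytes.

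All 7 genes lie in a P450 cluster on chromosome 7 that runs from 25802469 to 27158564 in GRCm38.p6. Cyp2b10 (25897658 to 25926624), Cyp2b13 (26061388 to 26096197) and Cyp2b9 (26173350 to 26210661) come first, then Cyp2a4 (26307192 to 26315088), Cyp2a5 (26835339 to 26843264) and Cyp2a12 (27029090 to 27036818), all on the plus strand. Cyp2a22 (26931631 to 26939413) is on the minus strand. Of 33 other genes and pseudogenes in that stretch, 11 were IDs of the tables and 1 passed the filter, the lung and liver P450 gene Cyp2f2. Cyp2b19 and Cyp2b23 had 0 counts in all 12 libraries.

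The sequences ahead of these genes show which members are alike upstream. Transcript sequences, on which the assignment of reads depends, were not compared. The RefSeq promoter table of GRCm38.p6 held all 7 members. The lines below give the bases before the start of Cyp2a4 (chr7:26306942-26307191), Cyp2a5 (chr7:26835089-26835338), Cyp2b9 (chr7:26173159-26173349) and Cyp2b10 (chr7:25897408-25897657), read 5′ to 3′ on the plus strand. Capitals mark matches to TATAAA, the TATA box, and to TTATGCAA, the D-box bound by the clock-linked factors DBP, TEF and HLF, found here on the minus strand as TTGCATAA.
Cyp2a4: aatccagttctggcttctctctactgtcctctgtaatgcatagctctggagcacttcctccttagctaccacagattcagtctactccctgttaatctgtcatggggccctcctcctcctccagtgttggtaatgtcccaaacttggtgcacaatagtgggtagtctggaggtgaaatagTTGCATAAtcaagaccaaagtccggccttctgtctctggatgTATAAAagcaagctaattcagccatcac
Cyp2a5: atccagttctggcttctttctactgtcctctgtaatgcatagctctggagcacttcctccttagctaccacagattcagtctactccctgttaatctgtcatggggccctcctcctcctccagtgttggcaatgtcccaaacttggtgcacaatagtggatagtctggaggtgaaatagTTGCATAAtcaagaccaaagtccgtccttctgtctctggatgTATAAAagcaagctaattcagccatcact
Cyp2b9: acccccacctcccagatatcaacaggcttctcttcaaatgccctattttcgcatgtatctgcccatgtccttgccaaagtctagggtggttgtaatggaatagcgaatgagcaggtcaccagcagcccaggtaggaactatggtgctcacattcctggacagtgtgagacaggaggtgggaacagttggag
Cyp2b10: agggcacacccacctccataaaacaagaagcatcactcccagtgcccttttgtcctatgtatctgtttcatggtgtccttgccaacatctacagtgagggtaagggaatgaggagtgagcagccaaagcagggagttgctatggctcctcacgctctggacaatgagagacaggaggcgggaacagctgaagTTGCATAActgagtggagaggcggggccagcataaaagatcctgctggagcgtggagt

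Windows of 250 bases ahead of the transcript start in the promoter table were compared. Those of Cyp2b9, Cyp2b13 and Cyp2a22 reach 59, 107 and 27 bases into the gene as the gene table gives it, and the Cyp2b9 line is printed only up to the gene's start, as 191 bases. In these windows Cyp2a4 and Cyp2a5 were 98.4% identical at a shift of 1 base, and Cyp2b9 and Cyp2b13 were identical at 248 of 250 bases. Cyp2a12 and Cyp2a22 were 88.7% identical at a shift of 11 bases in the other direction, while Cyp2b9 and Cyp2b10 reached 50.6%. The D-box letters occurred in 3 members: at -70 to -63 from the start in Cyp2a4, at -71 to -64 in Cyp2a5 and at -58 to -51 in Cyp2b10. On both strands these letters were in 0.744% of 27025 promoter windows of the same length. TATAAA was in all 4 Cyp2a windows and in none of the Cyp2b windows, against 13.0% of all windows. The STAT5 letters TTCNNNGAA (7.18% of all windows) and the HNF6 letters ATCAAT (6.97%) were in no member's window. No searched motif overlapped another in these windows.

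Library totals ran from 3341046 to 13263355 counts, and nuclear protein-coding genes held 4.09% to 39.3% of them. That share was 5.60% and 6.01% in the keto heavy libraries and 15.9% to 29.7% in the chow heavy libraries. In light it was 6.61% and 4.09% in keto 1 and 2, and 6.53%, 8.16% and 39.3% in chow 1, 2 and 3. The hepatocyte gene Alb lay between 1189 and 3218 CPM in every library, and the 4 Y-linked genes examined as a check of the labelled sex had counts in all 12. Xist, the RNA of the inactive X chromosome in females, had 26 counts (5.02 CPM) in keto 2 heavy, 8 (2.83 CPM) in keto 2 light, 4 in chow 1 light and 0 in the other 9 libraries. That the pools of an animal come from the same liver rests on the titles alone and was not tested. In chow 3 and keto 1 the pools differed widely in several genes besides the members, with values given beside Cyp2b9, and each heavy-over-light value of these animals depends on that link. Levels are given as CPM, the count scaled per 1000000 counts of the TMM-scaled library, they are not divided by gene length, and they are therefore compared between libraries and not between genes. Count intervals and lower bounds cover counting error only.

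Cyp2a5 had the most counts of the members, and its heavy pool was above its light pool in all 6 animals. In chow 1, 2 and 3 it had 55.6, 277 and 134.1 CPM in heavy (224, 1908 and 1840 counts) and 19.7, 112 and 25.6 CPM in light (113, 777 and 329 counts). Keto 1 had 85.5 CPM in heavy and 27.8 in light, keto 2 had 35.7 and 20.9, and the S209A animal had 86.0 and 62.3. The heavy pools of all animals lay between 35.7 and 277 CPM and overlapped the light pools, which lay between 19.7 and 112 CPM. Within an animal the heavy level was 2.83 (chow 1), 2.48 (chow 2) and 5.23 (chow 3) times the light level. In the keto livers, which the choice of members did not use, it was 3.07 times (95% interval 2.56 to 3.72) in keto 1 and 1.71 times (1.27 to 2.34) in keto 2. In the S209A liver it was 1.38 times (1.23 to 1.55), the lowest of the 6 ratios. Heavy was thus also above light in each of the 4 animals other than chow 3 and keto 1.

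**Figure D1:**
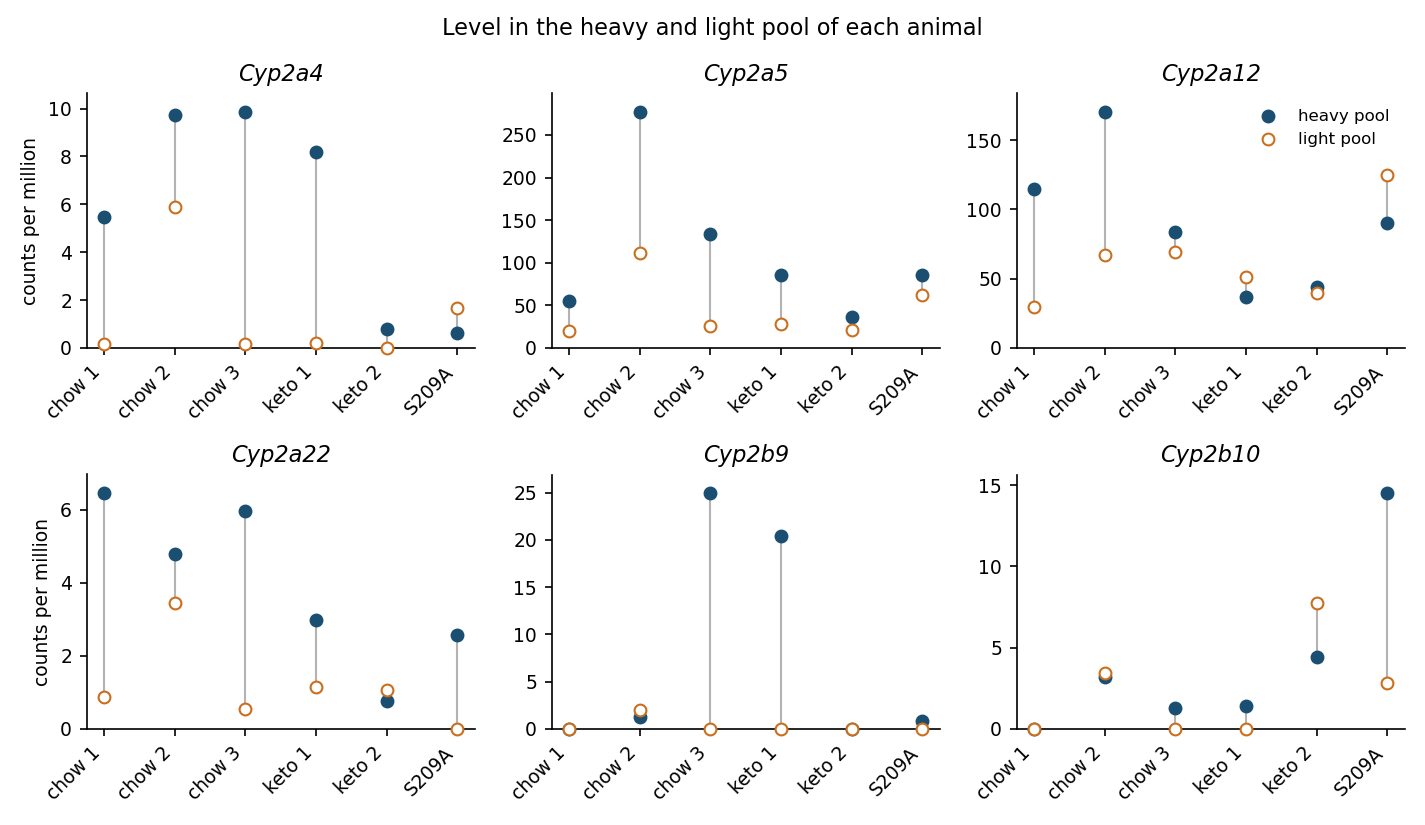
Level of 6 members in CPM of the TMM-scaled library (vertical axis, starting at 0 and different in each panel) in the heavy pool (filled) and the light pool (open) of each animal, with a grey line joining the pools of an animal. Cyp2a5 is higher in heavy in every animal, Cyp2b9 is high in the heavy pools of chow 3 and keto 1 alone, and Cyp2b10 is highest in the heavy pool of the S209A animal.

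Cyp2a4, near-identical to Cyp2a5 in its upstream window, showed wider gaps between the pools on few counts. It had 5.46, 9.71 and 9.84 CPM in the heavy pools of chow 1, 2 and 3 and 0.174, 5.89 and 0.156 CPM in their light pools, where it had 1, 41 and 2 counts. Keto 1 had 52 counts in heavy and 1 in light, keto 2 had 4 and 0, and the S209A animal had 6 and 13. In 3 of the 6 animals the light pool thus held 1 or 2 counts beside 22 or more in heavy, in chow 2 the pools were close, and in the S209A animal light was the higher. The heavy level was 31.4 times the light level in chow 1 (95% counting interval 5.08 to 1296), 63.1 times in chow 3 (17.1 to 527) and 42.9 times in keto 1 (7.37 to 1726). It was 1.65 times in chow 2 (1.10 to 2.49). In the S209A animal it was 0.369 times (0.115 to 1.04), an interval that includes equal levels. For keto 2 no ratio is given, since against a floor of 3 counts in the light library the bound is under 1.

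The share of Cyp2a4 in the counts of Cyp2a4 and Cyp2a5 together sets the copies against each other inside a library and needs no scaling. In the heavy pools it was 8.94% (chow 1), 3.39% (chow 2), 6.84% (chow 3), 8.72% (keto 1), 2.12% (keto 2) and 0.713% (S209A). In the light pools it was 0.877% (chow 1), 5.01% (chow 2), 0.604% (chow 3), 0.680% (keto 1) and 2.61% (S209A). Keto 2 light had 0 of 59, which allows up to 6.06% (exact binomial interval). The exact intervals of heavy and light do not overlap in chow 1 (5.69% to 13.2% against 0.0222% to 4.79%), chow 3 (5.76% to 8.04% against 0.0733% to 2.17%) and keto 1 (6.58% to 11.3% against 0.0172% to 3.73%). They overlap in chow 2, keto 2 and the S209A animal.

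**Figure D2:**
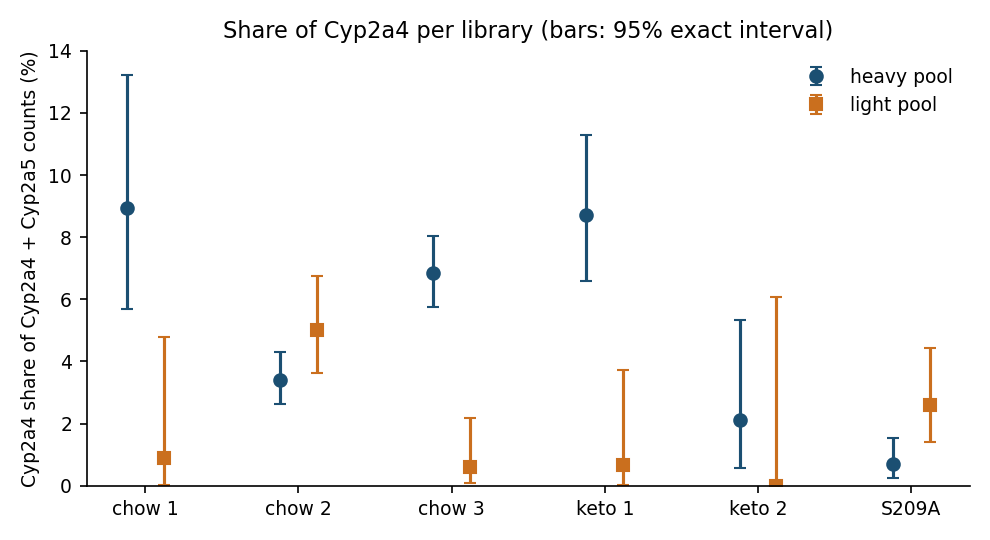
Percent of the counts of Cyp2a4 and Cyp2a5 together that were assigned to Cyp2a4 (vertical axis) in the heavy (circles) and light (squares) library of each animal, with exact 95% binomial intervals. The share is 8.94%, 6.84% and 8.72% in the heavy pools of chow 1, chow 3 and keto 1, whose light pools are all under 1%, and chow 2 and the S209A animal run the other way.

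Cyp2a12, a testosterone hydroxylase, moved apart from Cyp2a5 between animals. It had 115, 170 and 83.8 CPM in the heavy pools of chow 1, 2 and 3 and 29.6, 67.4 and 69.3 in their light pools. Keto 1 had 36.8 CPM in heavy and 50.9 in light, keto 2 had 43.8 and 39.6, and the S209A animal had 89.9 and 125. The heavy level was 3.89, 2.52 and 1.21 times the light level in chow 1, 2 and 3. It was 0.723 times in keto 1 (95% interval 0.604 to 0.865), 1.11 times in keto 2 (0.879 to 1.40) and 0.722 times in the S209A animal (0.658 to 0.792). In the same animals Cyp2a5 was higher in heavy, so the genes differed in sign in keto 1 and in the S209A animal.

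Cyp2a22, the member closest to Cyp2a12 in its upstream window, had few counts. It had 26, 33 and 82 in the heavy pools of chow 1, 2 and 3 and 5, 24 and 7 in light. Keto 1 had 19 and 6, keto 2 had 4 and 3, and the S209A animal had 25 and 0. Heavy was above light by 7.42 times in chow 1 (2.80 to 24.8), 10.96 times in chow 3 (5.09 to 28.1) and at least 6.67-fold in the S209A animal, taking 3 counts as the floor of the light library. In keto 1 the heavy level was 2.61 times the light level, with an interval that starts just above equal levels (1.003 to 7.99). In keto 2 (0.729 times, 0.123 to 4.97) and in chow 2 (1.39 times, 0.795 to 2.45) the interval includes equal levels.

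Cyp2b9 was high in a single pool of 2 animals. It had 342 counts in the heavy pool of chow 3 and 130 in that of keto 1, with 0 in both of their light pools. Chow 2 had 9 in heavy and 14 in light, the S209A animal had 8 and 0, and chow 1 and keto 2 had 0 in both pools. In CPM the levels were 24.9 in chow 3 heavy and 20.4 in keto 1 heavy, against 2.01 or less in the other 10 libraries. With 3 counts as the floor of each light library, heavy was at least 107-fold higher in chow 3 and at least 35.7-fold higher in keto 1. In chow 2 the heavy level was 0.648 times the light level (0.248 to 1.61). The gene passed the filter through these 2 heavy libraries.

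**Figure D3:**
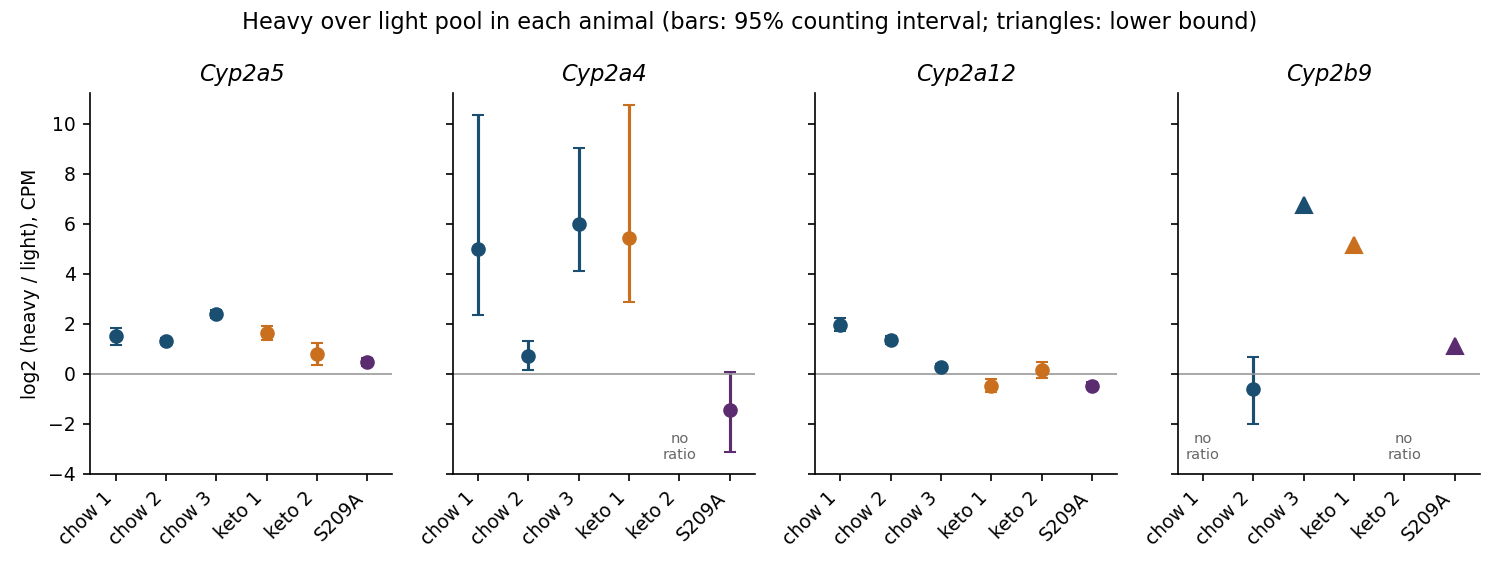
Log2 of the heavy over the light level (vertical axis) of Cyp2a5, Cyp2a4, Cyp2a12 and Cyp2b9 in each animal, with 95% counting intervals as bars, lower bounds against a floor of 3 counts as triangles and "no ratio" where both pools were at or near the floor. Cyp2a5 lies above 0 in all 6 animals, Cyp2a12 lies on both sides of 0, and the bounds of Cyp2b9 in chow 3 and keto 1 are 6.74 and 5.16.

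Among all genes with at least 20 counts in both pools of an animal together, Cyp2b9 had the highest heavy-minus-light difference in chow 3 (rank 1 of 9034, log2 6.52 with a prior count of 2) and in keto 1 (rank 1 of 7330, log2 6.24). In chow 2 it ranked 5342 of 7624. Cyp2a4 ranked 4 in chow 3 (log2 4.55), 5 in keto 1 (4.18) and 17 of 6887 in chow 1 (3.68), but 1927 in chow 2 (0.70). Cyp2a5 ranked 73 in chow 3, 318 in keto 1 and 1503 of 6132 in keto 2. It ranked 736 in chow 1, 792 in chow 2 and 2412 of 8004 in the S209A animal. Cyp2a12 ranked ahead of Cyp2a5 in chow 1 (325) and chow 2 (753). It ranked 3045 in chow 3, 33.7% from the top, and 5455 in keto 1, 74.4% from the top. In keto 2 it ranked 2784 and in the S209A animal 5689.

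**Figure D4:**
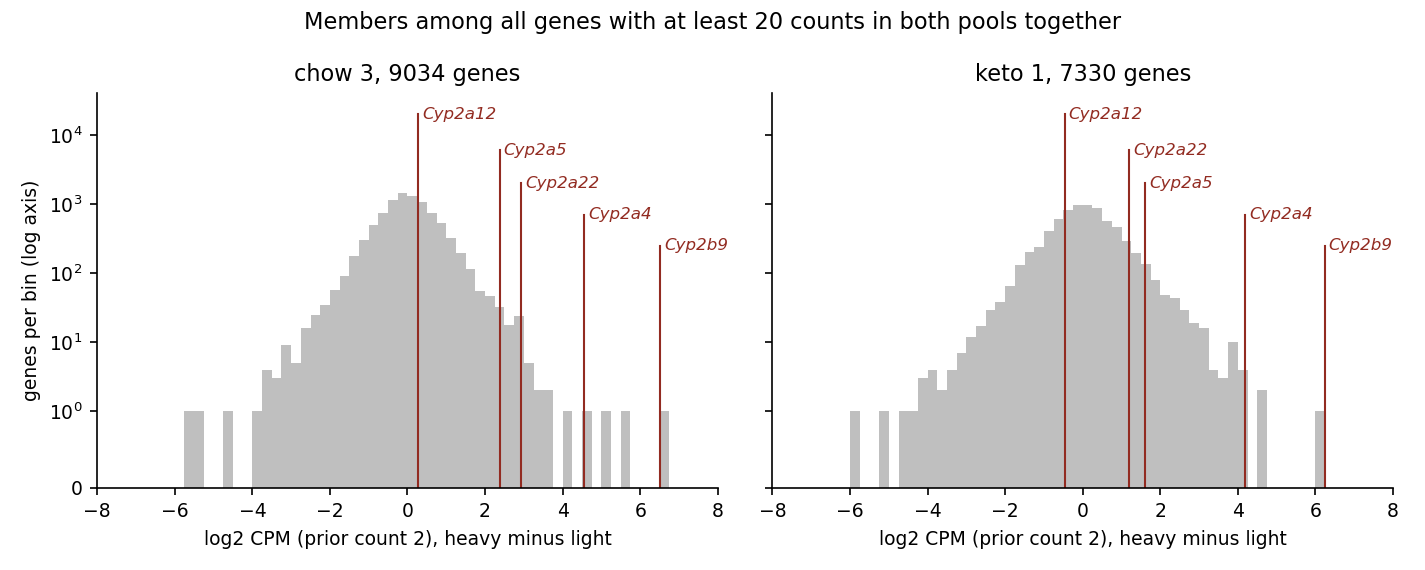
Number of genes per bin (vertical log axis, linear below 1) by the difference in log2 CPM between heavy and light pool (horizontal axis) in chow 3 (9034 genes) and keto 1 (7330 genes), with the members as red lines whose heights carry no meaning. Cyp2b9 is the gene farthest to the right in both animals, Cyp2a4 stands in the right tail, and Cyp2a12 stands at 0.27 in chow 3 and -0.47 in keto 1.

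Other genes set these pools apart as well. Genes with at least 60 counts in one pool and at most 2 in the other, a rule set after values were seen, numbered 3 for the heavy pool of chow 3 (Cyp2b9, Cyp2a4 and the acute phase gene Lcn2) and 1 for the heavy pool of keto 1 (Cyp2b9). For the light pools they were Serpina4-ps1 and Adh6-ps1 in chow 3 and Serpina4-ps1 in keto 1. Other animals had such genes too, 8 in chow 1 light, 2 in each pool of chow 2, 6 in keto 2 heavy and 2 in S209A heavy, and no member was among them. Serpina4-ps1 had 2 counts in heavy and 286 in light in chow 3, and 0 and 88 in keto 1. Of 29 male-biased liver genes that passed the filter, heavy was above light for 2 in chow 3, 1 in keto 1, 5 in keto 2 and 3 in the S209A animal, but for 25 in chow 1 and 19 in chow 2. Their median log2 difference was -1.82 in chow 3 and -1.30 in keto 1, where the median of all genes was 0.00 in both, and 1.33 in chow 1. The male-biased hydroxysteroid dehydrogenase Hsd3b5 had 0 counts in heavy and 35 in light in chow 3, and 0 and 18 in keto 1. Of 17 female-biased genes that passed, heavy was above light for 10 in chow 3 and 7 in keto 1. Cyp17a1, the one with the smallest p in the keto fit, had 149 counts in heavy and 25 in light in chow 3, and 51 and 7 in keto 1. Its heavy level was above its light level in the other animals too. Sult2a1 and Sult3a1, defining genes of female liver and named for that rather than by p, had 0 counts in all 12 libraries. The part of these genes' difference in the values of Cyp2b9 and Cyp2a4 was not tested.

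The fit of heavy against light in the ketogenic livers used samples that did not choose the members. It called 1 of 6 members, Cyp2b9, beside 0.180% of all genes (19 of 10555, 5 higher and 14 lower in heavy). Among the 4 keto libraries Cyp2b9 had counts in keto 1 heavy alone, so its call rests on 1 library, is given as a description and supports nothing about the members. Its fitted value was log2 9.57 ± 2.00 (SE, n = 2 animals, edgeR adjusted p = 0.00308). It rests on keto 1, since keto 2 had 0 counts in both pools, and the fitted value depends on the prior count and is no bound. The call was lost without chow 3, which shares the estimate of spread (adjusted p = 0.0814), and Cyp2b9 failed the filter without keto 1. It was also lost with library totals in place of TMM (adjusted p = 0.202), and DESeq2 gave it no adjusted p.

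Cyp2a4 had log2 5.32 ± 1.49 in that comparison (edgeR adjusted p = 0.126) and Cyp2a5 1.21 ± 0.46 (adjusted p = 0.789), so neither passed with 2 animals. The values were 0.62 ± 1.19 for Cyp2a22, 0.67 ± 1.06 for Cyp2b10 and -0.16 ± 0.45 for Cyp2a12, all at an adjusted p of 1. With copies summed, Cyp2a4 plus Cyp2a5 had 1.29 ± 0.46 (adjusted p = 0.667) and Cyp2b9 plus Cyp2b13 had 9.58 ± 1.99 (adjusted p = 0.00305). In the same comparison 28 of the 29 male-biased genes had a negative value with a median of log2 -1.24, against 0.03 for all genes. Of these, 3 were called lower in heavy, namely the urinary protein gene Mup7 (-3.19 ± 0.52), the glutathione transferase Gstp1 (-2.32 ± 0.48) and Slco1a1, an organic anion carrier (-2.17 ± 0.54). The adjusted p values of edgeR were 4.36e-06, 0.00308 and 0.0340.

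For chow, the fitted heavy-over-light values are a description, since this contrast chose the members. They were log2 3.35 ± 0.86 for Cyp2a4, 1.73 ± 0.37 for Cyp2a5, 1.19 ± 0.37 for Cyp2a12, 2.21 ± 0.91 for Cyp2a22, 3.25 ± 1.19 for Cyp2b9 and 1.52 ± 1.02 for Cyp2b10 (SE, n = 3 animals). There 2 members were past the threshold, beside 0.227% of all genes (24 of 10555). Cyp2b9 in chow is carried by chow 3, with 0 counts in chow 1 and the opposite order in chow 2.

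Cyp2b10, the CAR target, had its highest level in the S209A animal. It had 0 counts in both pools of chow 1, 22 in heavy and 24 in light in chow 2, and 18 and 0 in chow 3. Keto 1 had 9 and 0, keto 2 had 23 and 22, and the S209A animal had 141 and 22. The S209A heavy pool stood at 14.5 CPM, above all other libraries, the next of which was keto 2 light at 7.78. The wild-type chow heavy pools had 0, 3.19 and 1.31 CPM. The heavy level was 0.925 times the light level in chow 2 (0.494 to 1.72) and 0.571 times in keto 2 (0.304 to 1.07). With 3 counts as the floor of each light library, heavy was at least 5.61-fold higher in chow 3 and at least 2.47-fold higher in keto 1. In the S209A animal the heavy level was 5.13 times the light level (3.26 to 8.45). The S209A group is 1 animal, so this has no replicate check, and no test was made.

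Which Cyp2b gene took most of the family's counts, with no correction for gene length, differed between animals. Cyp2b9 made up 94.0% (91.0% to 96.2%) of the counts of the Cyp2b members in chow 3 heavy and 92.9% (87.3% to 96.5%) in keto 1 heavy. Cyp2b10 made up 94.6% (89.7% to 97.7%) in S209A heavy, all 23 counts in keto 2 heavy and 71.0% (52.0% to 85.8%) in chow 2 heavy. Cyp2b13 had 5 counts in all, 4 in chow 3 heavy and 1 in keto 1 heavy, the libraries in which Cyp2b9 was high. The upstream windows of Cyp2b13 and Cyp2b9 are near-identical, and their transcripts were not compared. Reads of close copies can be assigned to either, and the sources used here do not say how multi-mapped reads were counted.

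In chow 1, the animal with no Cyp2b count, 7 of the 31 regulators and partners tested were below the other 10 libraries in both pools, and 6 were above them in at least 1 pool. How many of all genes lie outside the other libraries in this way was not counted, so these counts are no result about the regulators. Nr1i3, which encodes CAR, had 2.98 CPM in its heavy and 1.39 in its light pool, against 16.2 to 81.1 CPM in the other 10 libraries. Dbp, the D-box factor gene, had 2 and 0 counts there, against 22 to 183 in the other libraries. Tef had 3.97 and 2.78 CPM in chow 1, against 9.26 to 43.6 elsewhere. Chow 1 also had the lowest Cyp2a5 levels of the chow animals in both pools, while its Cyp2a12 heavy level (115 CPM) lay between those of chow 2 and chow 3. Hlf, the third D-box factor gene, had 0.993 CPM in chow 1 heavy and 3.83 in its light pool, the latter inside the range of the others, and Ppp1r3b was highest in chow 1 (32.8 and 39.7 CPM). These 5 genes were picked from the list of regulators after their values were seen, and their part in the members' levels was not tested.

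The comparison of diets asked whether members differed between 24 h of ketogenic diet and chow within a pool. In the heavy pool edgeR called 0 of 6 members, against 0% of all genes (0 of 10552, with 862 at an unadjusted p under 0.05, and 98 called by DESeq2). Cyp2a12 had the smallest p. Its heavy levels were 36.8 and 43.8 CPM in keto (40.3 ± 4.99, SD, n = 2) and 115, 170 and 83.8 in chow (123 ± 43.7, SD, n = 3). The fitted difference was log2 -1.61 ± 0.54 (SE, unadjusted p = 0.0112 and adjusted p = 0.506 in edgeR). DESeq2 put it just past the threshold at log2 -1.61 (adjusted p = 0.0496), and edgeR on library totals gave -3.07 (adjusted p = 0.0411), a scaling under which the median of all genes moved to -1.60.

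The other Cyp2a members also had negative values in heavy, log2 -1.36 ± 0.70 for Cyp2a5, -1.58 ± 0.81 for Cyp2a22 and -0.89 ± 0.83 for Cyp2a4 (edgeR adjusted p of 0.639 to 0.829). Cyp2a22 stood at 0.773 and 2.99 CPM in keto against 4.78 to 6.46 in chow. How many of all genes have keto and chow levels apart, as Cyp2a12 and Cyp2a22 do in heavy, was not counted. The keto and chow levels of Cyp2a5 and Cyp2a4 overlapped. Cyp2b10 had 0.89 ± 1.01 (adjusted p = 0.870) and Cyp2b9 0.19 ± 1.52 (adjusted p = 0.988), with overlapping groups. The sum of the 4 Cyp2a members was 81.1 and 133.5 CPM in keto against 182, 461 and 234 in chow, log2 -1.45 ± 0.63 (adjusted p = 0.581). In bulk RNA, fewer cells that express a gene and less RNA per cell cannot be told apart.

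**Figure D5:**
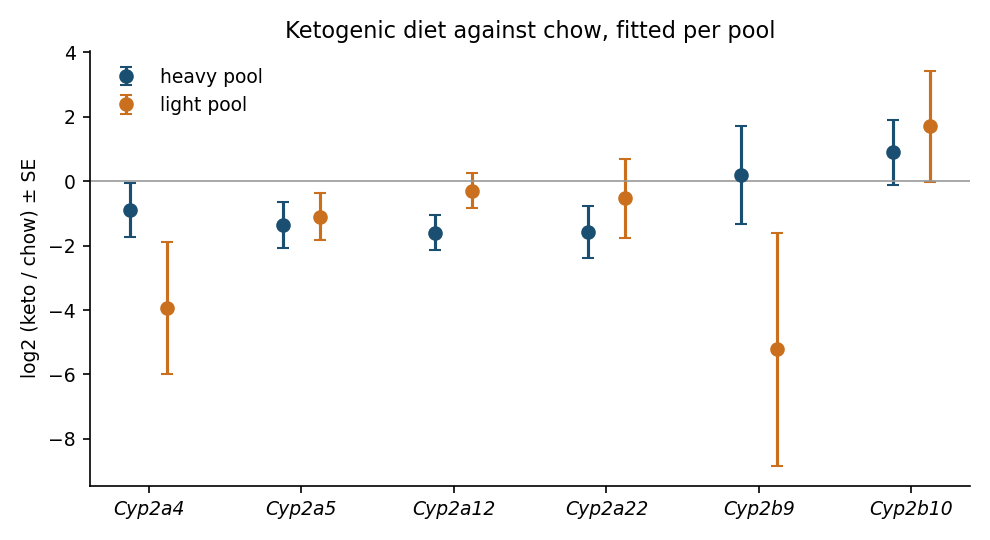
Fitted log2 difference between ketogenic diet and chow (vertical axis, bars are ± SE) of 6 members in the heavy and the light pool, from 2 keto and 3 chow animals. The 4 Cyp2a members lie below 0 in both pools, but in light the bars of Cyp2a12 and Cyp2a22 reach past 0. Cyp2b9 also lies below 0 in light, and no member passed the test in either pool.

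In the light pool edgeR again called 0 of 6 members, against 0% of all genes (0 of 10551, with 645 at an unadjusted p under 0.05, and 0 called by DESeq2). Cyp2a12 was at 50.9 and 39.6 CPM in keto and 29.6, 67.4 and 69.3 in chow, with overlap (log2 -0.29 ± 0.54, adjusted p = 0.942). Cyp2a5 was at 27.8 and 20.9 CPM against 19.7, 112 and 25.6 (-1.10 ± 0.73, adjusted p = 0.819). Values for Cyp2a4 (-3.93 ± 2.05) and Cyp2b9 (-5.22 ± 3.62) rest on 1 and 0 counts in the keto light pools and on the 41 and 14 counts of chow 2, and give no fold. Cyp2a22 had -0.53 ± 1.22 and Cyp2b10 1.71 ± 1.72 (adjusted p = 0.958 and 0.878).

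The lists around these genes had mostly negative values in the heavy pool, with 0 genes called. Of 25 other Cyp2 genes tested, 22 had a negative keto-over-chow value, with a median of log2 -1.14 against -0.04 for all genes, and 0 were called. The smallest p values belonged to Cyp2c67 (-2.02 ± 0.68), Cyp2c68 (-1.47 ± 0.51), Cyp2c29 (-2.12 ± 0.75) and Cyp2c23 (-1.76 ± 0.62), all at an edgeR adjusted p of 0.512. Of 34 other targets of CAR and its relative PXR, 26 were negative with a median of -1.11, and of 10 hepatocyte markers 9 were negative with a median of -1.17. Of 12 nuclear or untranslated RNAs, 10 were positive with a median of 1.97. Regulators and redox partners of the family had a positive median of 0.47, with 19 of 31 positive and 0 called. In the light pool the medians were -0.08 for the other Cyp2 genes and -0.45 for the CAR and PXR targets, against -0.13 for all genes. The shares of nuclear protein-coding counts differed between keto and chow libraries, as given above, and these and the diet cannot be told apart.

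Heavy over light, the regulators and partners stayed without a call in the ketogenic livers (16 of 31 positive, median log2 0.00). Their smallest p there was that of Ppargc1a (2.48 ± 0.86, edgeR adjusted p = 0.571). In chow the smallest was that of Nfe2l2 (1.47 ± 0.46, edgeR adjusted p = 0.165). Next came Por, the reductase that supplies electrons to P450 enzymes (1.14 ± 0.38, edgeR adjusted p = 0.274). Of the CAR and PXR targets 20 of 34 were positive in keto with a median of 0.07, and 1 was called, the lipogenic regulator Thrsp (2.75 ± 0.66, edgeR adjusted p = 0.0258). The other Cyp2 genes ran mostly the other way, with 7 of 25 positive and a median of -0.46, the smallest p values being those of Cyp2c67 (-1.40 ± 0.50) and Cyp2c23 (-1.36 ± 0.50), at adjusted p of 0.671 and 0.757. In chow 19 of those 25 were positive with a median of 0.52. Hepatocyte markers had the same signs, with 2 of 10 positive in keto (median -0.35) and 9 of 10 in chow (0.86), and of the nuclear or untranslated RNAs 7 of 12 were positive in keto (0.20) and 0 of 12 in chow (-1.18). Their part in the Cyp2 values was not tested.

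In the S209A animal, set beside the range of the 3 chow animals, Cyp2a4 in heavy (0.617 CPM) was below all chow heavy pools (5.46 to 9.84), and Cyp2a22 in heavy (2.57) was below theirs (4.78 to 6.46). Cyp2b10 in heavy was above them. Cyp2a5 in heavy (86.0) and Cyp2a12 in heavy (89.9) lay within the chow range. In light, Cyp2a12 (125 CPM) was above the chow range of 29.6 to 69.3, and Cyp2a5 (62.3) was within it. For how many of all genes this 1 animal lies outside the range of the 3 chow animals was not counted. These places are therefore a description and no result about the members. Of the 34 CAR and PXR targets, 19 were above the chow mean in heavy and 29 in light, by the sign of the fitted value, with medians of log2 0.08 and 0.77 beside -0.07 and -0.21 for all genes. In light, 9 of 10 hepatocyte markers (median 0.95) and 20 of 25 other Cyp2 genes (0.68) were also above it, and 11 of 12 nuclear or untranslated RNAs were below it (-2.54), so the direction was not particular to the CAR and PXR targets. Chow 3 and S209A share the aligner named in the headers, and chow 1 and 2 name another.

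Across the 12 libraries, which share animals in pairs and differ in depth, log2 CPM of Cyp2a4 and Cyp2a5 had a Pearson r of 0.87 and a Spearman rho of 0.88, given as a description. Cyp2a4 and Cyp2b9 had an r of 0.73, Cyp2a5 and Cyp2a12 0.68, and Cyp2a12 and Cyp2b9 0.05. Cyp2b10 had an r of at most 0.40 with any other member, that with Cyp2a5. Among 5097 protein-coding genes at or above the median level, the levels most like those of Cyp2a5 were those of the mitochondrial ribosomal protein gene Mrpl15 (r = 0.91), the bile acid synthesis gene Akr1d1 (0.85) and the elongation factor gene Eef1a1 (0.83). Those most like Cyp2a12 were the plasma protein gene Ahsg, the aldehyde dehydrogenase Aldh8a1 and the tautomerase Ddt, each at r = 0.97. The other members had a mean below 50 counts and were not compared this way.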

How the data were processed

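RNA of 12 libraries, a heavy and a light pool from each of 6 mouse livers, was analysed from raw counts per Entrez gene ID as deposited by the authors. The submitters' processing notes name Trimmomatic, HISAT2 and StringTie and the build mm10. Versions, the counter, strand handling and multi-mapped reads are not given in sources used here. Per the file headers, chow 1 and 2 came from Bowtie2, chow 3 and S209A from HISAT2, and keto 1 and 2 name no aligner. Of 27179 IDs, 25275 matched the RefSeq gene table of GRCm38.p6, 1904 stayed unnamed, and 0 were ERCC IDs.

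In R 4.3.3, edgeR 4.0.16 kept 10555 genes (filterByExpr, minimum of 10 counts) and scaled libraries by TMM, with factors of 0.324 to 3.12. Tests were edgeR's quasi-likelihood test, two-sided, Benjamini-Hochberg adjusted over all genes, with a threshold of 0.05. Each SE of a fitted value was derived from that test, as the absolute log2 value over the square root of the F statistic. For a gene with 0 counts on one side it is therefore no measure of precision. Heavy over light was fitted over 12 libraries with the animal as a block, since the labels tie the pools of an animal together (deviations correlated at r = 0.307, 0.305 and 0.463 in chow 1, 2 and 3 and 0.0616 in keto). Diets were compared within a pool over its 6 libraries. Animals are the replicates. DESeq2 1.42.0, other scalings and filters, summed copies and leaving out animals were alternatives. The fits were tested on simulated data. Ratios within an animal carry exact 95% intervals, with a floor of 3 counts per library against 0. The members, the gene lists and the tests were chosen with earlier results of these data known. Named from each list were at most 4 genes per comparison with the smallest p, and, for likeness, the 3 highest correlations; exceptions are stated.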

Additional observations from a re-analysis of the deposited data

How the results depend on the processing

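For chow heavy over light, 24 genes and 2 members were past the threshold. Library totals without TMM left 1 gene and 0 members, no filter 11 and 1, a mean of at least 50 counts 0 and 0 (355 genes at an unadjusted p under 0.05), and no replicate block for the animal 0 and 0 (371 unadjusted). DESeq2 called 94 genes, and summing the copies counted 1 member row. Leaving out an animal gave 5 to 407 genes, the most without chow 3, and 0 to 2 members. For keto heavy over light, 19 genes and 1 member were called. Library totals gave 1 and 0, DESeq2 3 and 0, a mean of at least 50 counts 0 and 0 (124 unadjusted) and no replicate block 0 and 0 (298 unadjusted). Leaving out an animal gave 6 to 33 genes and 0 to 1 members. Cyp2b9 had log2 8.10 on totals, 4.48 in DESeq2, 9.23 without the replicate block and 9.27 without chow 3, with no call in any of them.

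For keto over chow in heavy, 0 genes became 384 on totals, 98 in DESeq2, 112 without the filter, 83 with the replicate block across diets and 126 with title wording as a batch, and 0 to 67 when an animal was left out, 67 without chow 3. Of the members, 1 (Cyp2a12) was called on totals and by DESeq2, and 0 in the other settings. Paired by number, Cyp2a12 had log2 -1.80 (adjusted p = 0.104), and with the wording as a batch -1.82 (0.0635). The numbers shared by chow and keto are only numbers, with deviations correlated at -0.067 to 0.0463. In light, 0 genes became 41 without the filter and 5 with the replicate block, with 0 in the settings that left out an animal.

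In chow heavy over light, leaving out an animal gave -0.62 (without chow 3) to 9.92 (without chow 2, adjusted p = 0.000116) for Cyp2b9 and -0.14 to 5.69 for Cyp2b10 at the same animals. No member with a sign change, here or in the comparisons below, had passed in that comparison in the main fit. In keto heavy over light, Cyp2a12 had 0.14 on totals, Cyp2a22 -0.13 when summed with Cyp2a12 and Cyp2b10 -0.34 without the replicate block. Leaving out an animal gave -0.48 (without keto 2) to 0.14 (without keto 1) for Cyp2a12, -0.46 to 1.37 for Cyp2a22 and -0.81 to 6.51 for Cyp2b10, at the same animals. In keto over chow in heavy, Cyp2b9 had -1.99 and Cyp2b10 -0.64 on totals. Leaving out an animal gave -0.36 (without chow 1; -0.29 without chow 2) to 3.81 (without chow 3) for Cyp2b9 and -0.13 (without keto 2) to 1.88 (without chow 2) for Cyp2b10. In light, Cyp2a12 had 0.0093 with the replicate block. Leaving out an animal gave -1.49 (without chow 1) to 0.11 (without chow 2) for Cyp2a5, -0.96 (without chow 3) to 0.65 (without chow 2) for Cyp2a22 and -6.14 (without keto 2) to 7.68 (without chow 2) for Cyp2b10. The cause was not tested. The median share of Cyp2a4 stayed within 1 SD: in heavy 5.11% over all, 6.06% in libraries titled chow or keto and 3.77% in those titled fed. In light it was 0.779%, 0.779% and 1.61%.

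Depth limits Cyp2a4, Cyp2a22 and the Cyp2b genes most: with 3 counts allowed where 0 were seen, the floor is 0.219 to 1.06 CPM per library. Scaling on protein-coding genes or by DESeq2's size factors changed no count of members called.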

Other observations

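Markers of other liver cells were present in every library. Summed over 11 Kupffer cell markers the level was 31.8 to 96.3 CPM per library, over 10 endothelial markers 43.3 to 127 CPM and over 10 stellate cell markers 40.8 to 86.4 CPM, and over 10 hepatocyte markers it was 4788 to 14258 CPM. The erythroid markers were higher in light than in heavy in 4 of 4 genes in chow 3, keto 1, keto 2 and the S209A animal. Heavy was above light for 1 of 4 in chow 2 and 3 of 4 in chow 1. Lcn2, an acute phase gene, was the gene besides Cyp2b9 and Cyp2a4 that stood at 60 or more counts in chow 3 heavy (170) with at most 2 in light (0). In keto 1 it had 42 and 0, and in the S209A animal 40 and 32.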
